A study of Rattus norvegicus with 16 samples.

Results

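The genes described here encode subunits of ribonuclease P (RNase P) and of its relative RNase MRP, measured in the hearts of 2-day-old rats. The list holds 10 genes, and 9 of them had a row in the deposited table whose platform annotation gives exactly 1 gene symbol, out of 14324 genes with such a row. The 9 were Pop1, Pop4, Pop5, Pop7, Rpp14, Rpp25, Rpp38, Rpp40 and Rpph1, each with 1 row, and Rpp30 had no such row and was not analysed here. The group was chosen by function and from strain differences already seen in these arrays, those of Pop5 and Rpph1 above all. Differences between the strains are therefore given for the members as a description, with no test. Sex and the strain by sex interaction, which the choice did not use, were tested.

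Hearts came from the Hypertrophic Heart Rat (HHR), a strain with inherited cardiac hypertrophy, and from the Normal Heart Rat (NHR), which served as control. Each strain gave 4 females and 4 males, so that there were 4 groups of 4 arrays, with 1 animal per array and no pooling. Every animal was 2 days old and was killed with pentobarbitone, and the labels name no treatment. The labels describe dissected ventricles in 1 place and the whole heart in another, and they name no litter, so litter and strain cannot be told apart. The values are log2 expression values from Affymetrix Rat Gene 1.0 ST arrays, on which a difference of 1 is a doubling of signal. They carry no background level, and their number limits the precision. As the tissue is a mixture of cells, fewer cells of a type and less RNA per cell cannot be told apart.

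RNase P removes the leader at the 5′ end of precursor transfer RNAs, and RNase MRP cuts the precursor of ribosomal RNA. Each is built on a catalytic RNA that RNA polymerase III transcribes, and the enzymes share most of their protein subunits, which act in the nucleus. Mitochondria use a separate RNase P that is made of protein alone. Growing tissue needs both products, transfer RNA and ribosomes, for protein synthesis, and the heart muscle grows fast after birth.

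On the arrays as a whole, the array medians lay between 7.19 and 7.28. A principal component analysis of the deviations from group means put 26.7% of the variance on its leading axis. NHR female 3, NHR female 4 and NHR male 4 scored 14.4, 15.1 and 22.6 there. These 3 are called the NHR arrays apart. HHR arrays scored from -3.72 to 7.48, and NHR male 3 scored 1.74. The other NHR arrays lay at the opposite end, female 1 at -16.9, female 2 at -12.6, male 1 at -11.1 and male 2 at -13.2. Scores are relative to group means, so the axis does not say which end is unusual. All 7 heart muscle markers examined were measured, with list means of 12.63 to 12.67 across HHR arrays and 12.69 to 12.80 across NHR arrays, and 3 of the 7 fell in HHR. Among markers of other cells and tissues, 2 of 5 atrial, 2 of 4 fibroblast, 1 of 3 leukocyte, 1 of 3 red cell and 1 of 2 liver markers rose. In the same lists 1 atrial, 0 fibroblast, 1 leukocyte, 1 red cell and 0 liver markers fell, and both measured endothelial markers fell (limma, adjusted p under 0.05). With the NHR arrays apart left out, 1 fibroblast and 0 liver markers rose, 0 atrial and 2 heart muscle markers fell, and the other marker counts stayed as they were. The list means of HHR and NHR arrays were 9.70 to 10.58 and 9.30 to 10.14 for atrial markers, and 10.94 to 11.15 and 11.17 to 11.33 for endothelial markers. They were 10.16 to 10.52 and 9.95 to 10.23 for fibroblast markers, 7.33 to 7.73 and 7.27 to 7.53 for leukocyte markers, 9.39 to 9.72 and 9.29 to 9.83 for red cell markers, and 6.80 to 7.07 and 6.65 to 6.90 for liver markers. Their part in the results below was not tested.

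RefSeq promoter sequences (assembly GRCr8, 250 bases before to 50 after the start) were at hand for 5 of the 9 members. Those of Pop5, the member with the largest strain difference, and Rpp25, the member with the largest difference in the opposite direction, are shown. Pop5 lies at chr12:47041983-47042282 on the minus strand and Rpp25 at chr8:66803012-66803311 on the plus strand. Capitals mark the letters found in a search for 8 short motifs on both strands, which here are GC boxes (GGGCGG) and, in Pop5, an AP-1 motif (TGAGTCA).
Pop5: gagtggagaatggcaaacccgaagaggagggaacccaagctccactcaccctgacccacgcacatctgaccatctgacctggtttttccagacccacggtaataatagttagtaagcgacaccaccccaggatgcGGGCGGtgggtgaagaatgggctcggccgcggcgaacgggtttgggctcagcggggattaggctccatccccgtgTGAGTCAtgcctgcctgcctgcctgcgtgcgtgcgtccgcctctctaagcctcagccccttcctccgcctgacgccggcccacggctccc
Rpp25: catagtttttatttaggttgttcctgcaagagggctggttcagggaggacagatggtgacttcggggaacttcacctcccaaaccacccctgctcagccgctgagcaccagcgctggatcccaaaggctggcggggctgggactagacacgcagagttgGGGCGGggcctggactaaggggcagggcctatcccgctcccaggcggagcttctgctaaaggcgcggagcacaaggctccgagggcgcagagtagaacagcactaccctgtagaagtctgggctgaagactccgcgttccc

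The GC box was in 4 of the 5 member promoters, those of Pop5, Rpp14, Rpp25 and Rpp40, and in 33.1% of all 33469 promoters of the same length. TGAGTCA was found only in Pop5 among the 5 (4.63% of all promoters). The E-box CACGTG was in Rpp38 (6.42%), and the cAMP response element TGACGTCA (1.83%) and the NRF1 core GCATGCGC (2.47%) were in Rpp14, where the core also overlaps its own reverse complement. The letters TATAAA (14.2%), CCAAT (37.5%) and CCGGAAG, an ETS motif (8.75%), were in none of the 5. The 5 promoters held 61.0% to 63.0% G and C, against a median of 51.7% over all promoters. A match is a description of the sequence and not of binding.

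Rpph1, the row annotated as the RNA component, was lower in HHR. It read 12.69, 12.74, 12.81 and 12.64 in HHR females 1 to 4 and 12.64, 12.64, 12.55 and 12.75 in HHR males 1 to 4. In NHR it read 13.31, 13.20, 13.95 and 14.04 in females and 13.15, 13.21, 13.34 and 13.67 in males. All 8 HHR arrays were below the lowest NHR array, and the 3 highest values belong to the NHR arrays apart. The mean was 12.68 ± 0.08 (SD, n = 8) in HHR and 13.48 ± 0.35 (SD, n = 8) in NHR, a log2 difference of -0.80, or 1.74-fold lower. Without the NHR arrays apart the difference was -0.56, and the other NHR arrays still lay between 13.15 and 13.34, above every HHR array. The annotation of this row (probe set 10783080) is not settled: RefSeq's table for GRCr8 lists the gene under the symbol Rpph1 but gives Rmrp as a synonym and types it as the RNase MRP RNA. Which of the RNAs the probes read cannot be settled here. RefSeq also places the gene within the span of Parp2, a DNA repair polymerase gene whose own row differed by -0.10 (SE 0.04, limma adjusted p = 0.12).

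Pop5, a protein that contacts the RNA core and sits with Rpp14, Rpp30 and Rpp40 in a subassembly of the enzyme, had the largest difference among the members. HHR females 1 to 4 read 7.72, 7.62, 7.49 and 7.65 and HHR males 1 to 4 read 7.83, 7.40, 7.21 and 7.50. NHR females 1 to 4 read 9.27, 8.83, 8.50 and 8.24 and NHR males 1 to 4 read 8.95, 9.35, 8.71 and 8.81. The strains did not overlap, with 0.40 between the highest HHR and the lowest NHR array. The mean of Pop5 (probe set 10762717) was 7.55 ± 0.20 (SD, n = 8) in HHR and 8.83 ± 0.37 (SD, n = 8) in NHR, a log2 difference of -1.28, or 2.43-fold lower. By size it ranked 14 of all 27342 rows, and Rpph1 ranked 76.

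**Figure D1:**
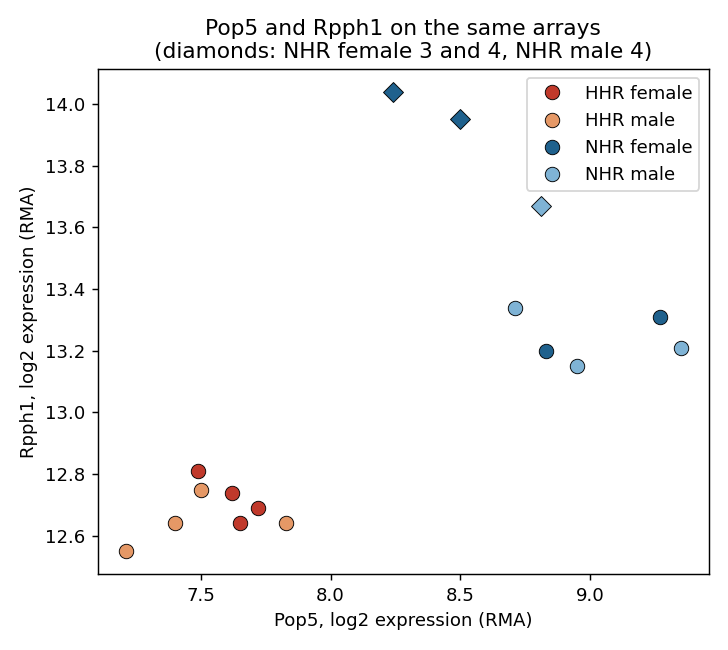
Each of the 16 points is an array, with the log2 expression of Pop5 on the horizontal axis and of Rpph1 on the vertical axis, coloured by group, and diamonds mark the NHR arrays apart. The 8 HHR arrays sit at the lower left, with Pop5 between 7.21 and 7.83 and Rpph1 between 12.55 and 12.81, and among the NHR arrays the diamonds combine the highest Rpph1 values, up to 14.04, with Pop5 values of 8.24 to 8.81.

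Within NHR, Pop5 and Rpph1 did not rise together, and high Rpph1 values tended to go with low Pop5 values. NHR female 4 had the highest Rpph1 value (14.04) and the lowest Pop5 value (8.24) of the strain, and NHR male 2, with the highest Pop5 value (9.35), had a Rpph1 value of 13.21. In the NHR arrays apart Pop5 averaged 8.52 and Rpph1 13.89, against 9.02 and 13.24 in the other NHR arrays. Leaving those arrays out thus widened the Pop5 difference to -1.47 while it narrowed that of Rpph1.

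Of the partners of Pop5 in its subassembly, Rpp30 had no row, and Rpp14 and Rpp40 differed much less than Pop5. Rpp14, whose transcript also encodes a mitochondrial fatty acid synthesis enzyme, ranged from 7.96 to 8.25 in HHR and from 7.94 to 8.51 in NHR. Its groups overlapped almost fully, with means of 8.13 ± 0.09 and 8.21 ± 0.18 (SD, n = 8 each) and a difference of -0.08. Rpp40, a scaffold of the same subassembly, ranged from 7.19 to 7.37 in HHR and from 6.60 to 7.33 in NHR. The low end of NHR was set by female 4 alone, the next lowest being male 1 at 6.97, and the Rpp40 means were 7.27 ± 0.08 and 7.10 ± 0.23 (SD, n = 8 each), a difference of 0.18. Without NHR female 4 it was 0.10.

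Pop1, the largest protein subunit and a stabiliser of the RNA core, showed no difference between the strains beyond its spread. It ranged from 6.55 to 6.78 in HHR and from 6.45 to 6.71 in NHR, with means of 6.63 ± 0.08 and 6.62 ± 0.08 (SD, n = 8 each). Pop1 was the only member whose strain difference had opposite signs in females (0.04) and males (-0.01), and each was smaller than its standard error.

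Pop4, also called Rpp29, and Rpp38, an RNA-binding protein of the same subassembly, were both higher in HHR on average. Pop4 ranged from 9.74 to 9.98 in HHR and from 9.40 to 9.79 in NHR, and 6 of 8 HHR arrays exceeded every NHR array. Its means were 9.84 ± 0.07 and 9.59 ± 0.13 (SD, n = 8 each), a difference of 0.25. NHR male 2, at 9.79, was the array that overlapped with HHR. Rpp38 overlapped more, with 8.50 to 8.85 in HHR, 8.15 to 8.61 in NHR and a difference of 0.21. Without the NHR arrays apart these differences were 0.18 for Pop4 and 0.16 for Rpp38. Rpp21, the remaining protein of this subassembly and not among the 10, differed by -0.07.

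Rpp25 and Pop7, also called Rpp20, bind each other and the RNA as a pair. Of the pair only Rpp25 was separated by strain, while the small difference of Pop7 rested on the NHR arrays apart. Rpp25 read 9.44, 9.26, 9.36 and 9.31 in HHR females 1 to 4 and 9.15, 9.29, 9.16 and 9.18 in HHR males 1 to 4. The NHR values were 8.90, 8.72, 8.96 and 9.14 in females and 8.87, 9.09, 8.75 and 9.03 in males. Every HHR array was thus above every NHR array, by as little as 0.01 between HHR male 1 and NHR female 4. The means were 9.27 ± 0.10 and 8.93 ± 0.15 (SD, n = 8 each), a difference of 0.34 or 1.26-fold, and 0.41 without the NHR arrays apart.

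Pop7 ranged from 8.42 to 8.79 in HHR and from 8.46 to 9.10 in NHR. Its 3 highest values, 9.10, 9.08 and 9.08, were the NHR arrays apart, and the other 5 NHR arrays lay between 8.46 and 8.71, inside the HHR range. The strain difference of -0.14 became 0.03 without those arrays. Pop7 therefore resembled Rpph1 in which NHR arrays were high, whereas Pop4, Pop5 and Rpp38 averaged lower in the NHR arrays apart (9.47, 8.52 and 8.31) than in the other NHR arrays (9.66, 9.02 and 8.46).

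**Figure D2:**
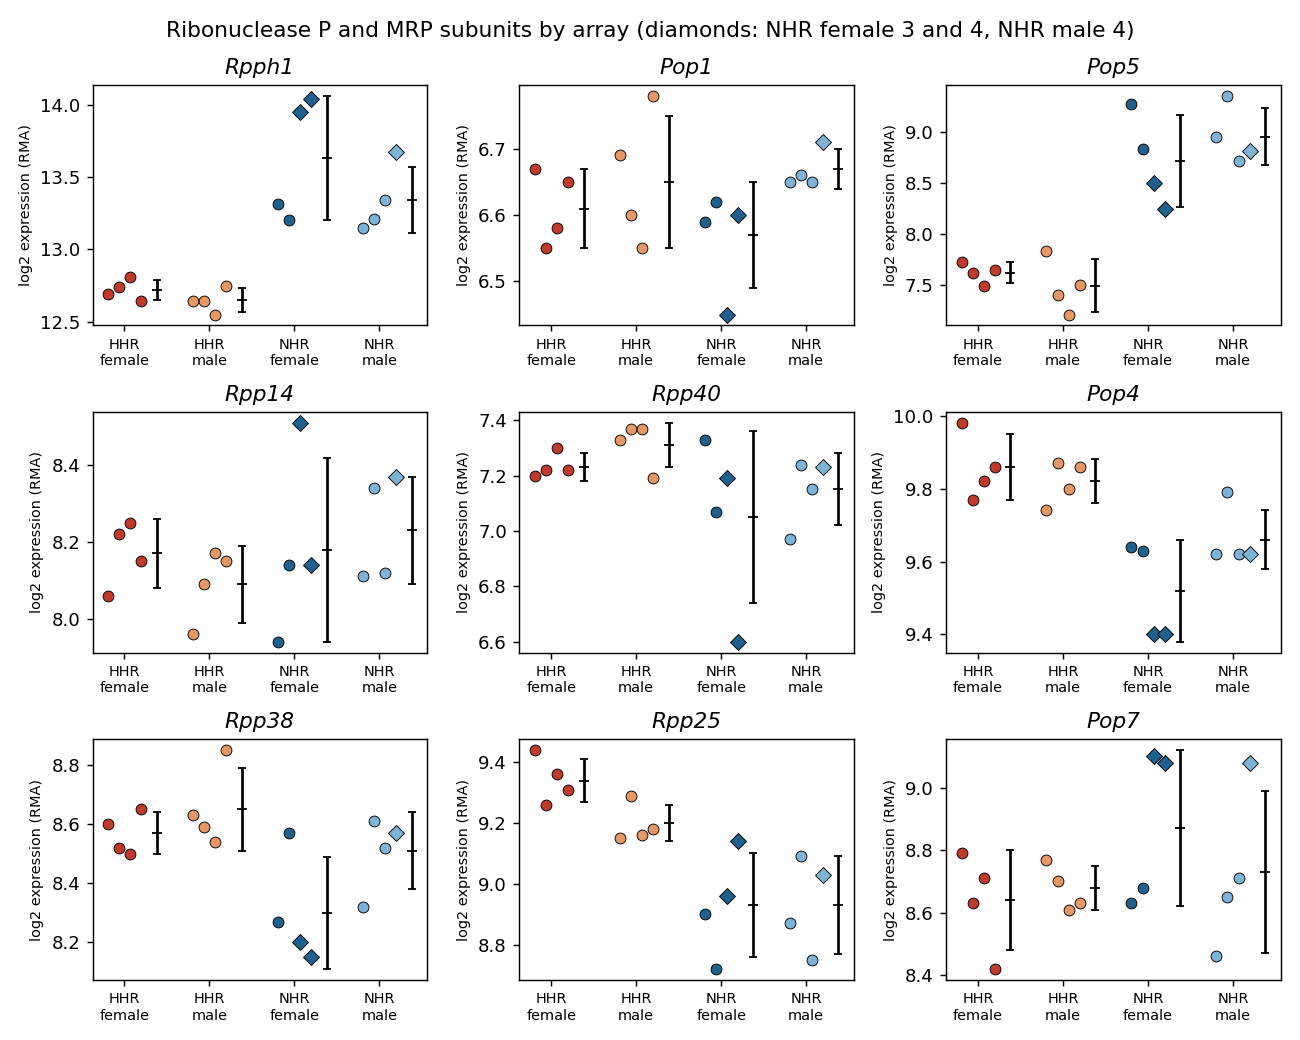
Each panel plots the log2 expression of a member, named above it, with a point for each array in the 4 groups of 4, diamonds for the NHR arrays apart and bars for the group mean with its SD. Vertical axes do not start at 0 and differ between panels. Pop5 and Rpph1 are separated by strain with HHR low, Rpp25 with HHR high, and in Pop7 the diamonds stand above all other arrays.

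Counted against the arrays as a whole, 3 of the 9 members (Pop5, Rpph1 and Rpp25) had all 8 HHR arrays outside the NHR range, as had 4.15% of all rows. In the fit across all rows 5 of the 9 passed the threshold, 3 higher and 2 lower in HHR. Of all 27342 rows 20.7% passed, 9.64% higher and 11.0% lower. Since the members were chosen with this contrast known, nothing is read from their share. The median of their differences was 0.02, against -0.03 over all rows, so the group had no common direction. The direction of the 5 was the same in all 24 alternatives, most of which were the same fit with arrays left out. That of Pop1, Pop7 and Rpp14 turned in 4, 1 and 1 of them.

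Females and males were compared next, which the choice of genes did not use. For no member was the male minus female difference past the test (limma, adjusted p 0.766 or higher), and 3 of all rows passed (0.011%). The differences of the 9 members ran from -0.18 in Rpph1 to 0.15 in Rpp38, and these became -0.05 and 0.08 without the NHR arrays apart. Rpp38 averaged 8.58 in males and 8.43 in females, a difference of 0.15 (SE 0.07, 95% interval 0.01 to 0.28), and was the only member with an unadjusted p under 0.05 (0.0391, limma), as had 1749 of all rows (6.4%). For Rpph1 the 95% interval was -0.41 to 0.05. Pop5 differed by 0.05 (95% interval -0.22 to 0.32) and by -0.09 without the NHR arrays apart.

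The strain difference was then compared between the sexes. The interaction passed for 0 of the 9 members and for 0 of all rows (0.0%; limma), with 1390 rows (5.08%) and 0 members at an unadjusted p under 0.05. Pop5 differed by -1.09 in females and -1.47 in males, and the interaction was -0.38 (SE 0.26, 95% interval -0.92 to 0.16, limma adjusted p = 0.994). Without the NHR arrays apart the Pop5 interaction was -0.09, and leaving out single arrays gave -0.57 (NHR female 1) to -0.22 (NHR female 4). Rpph1 differed by -0.91 and -0.70, with an interaction of 0.21 (SE 0.22, 95% interval -0.25 to 0.67, limma adjusted p = 0.994). Its sign turned without the NHR arrays apart (-0.05), and it was 0.07 without NHR female 4 and 0.35 without NHR female 2. Pop4 differed by 0.34 in females and 0.15 in males, with an interaction of -0.19 (SE 0.10, limma adjusted p = 0.993) that was -0.08 without the NHR arrays apart. Such intervals do not show that the sexes are alike.

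**Figure D3:**
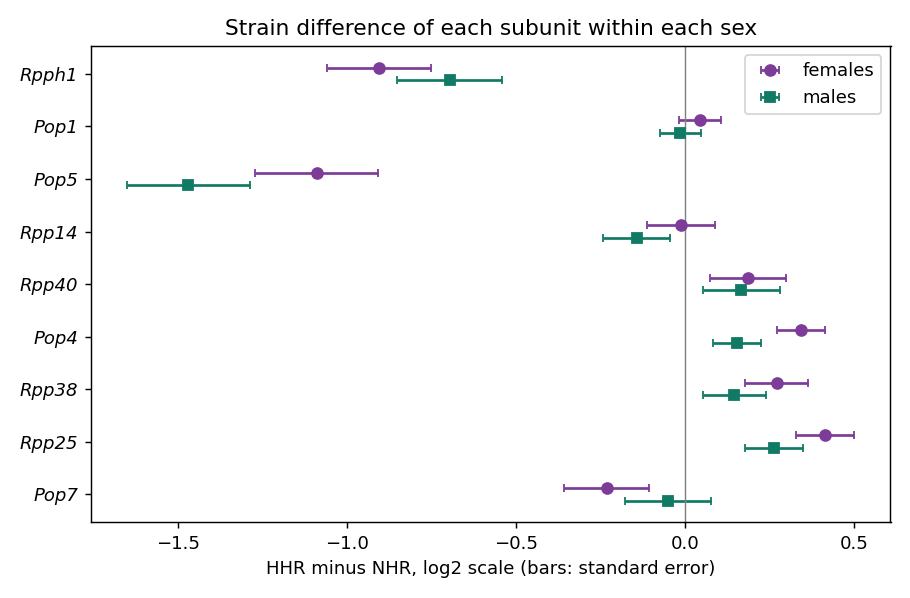
HHR minus NHR on the log2 scale for each member, with a circle for females, a square for males and bars of 1 standard error from the fit. Pop5 and Rpph1 lie left of 0 in both sexes, from -1.47 to -0.70, Rpp25 and Pop4 lie right of it in both, and Pop1 straddles it.

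Position on the chromosome was examined through the measured gene next to each member on either side in RefSeq's table. Next here means order alone, as not every gene was measured. Distances to neighbours that do not overlap their member ran from 0.009 kb (Rida to Pop1) to 1620 kb (Vstm2b to Pop4). Fars2 lies 201 kb from Rpp40 and Osgep 103 kb from Rpph1. By that table the 9 members lie on chromosomes 1, 7, 8, 12, 15 and 17. Pop5 stands between Rnf10, a ubiquitin ligase, at 1.25 kb and Cabp1, a neuronal calcium-binding protein, at 0.136 kb. Cabp1 fell in HHR, from 7.19 ± 0.15 in NHR to 6.65 ± 0.12 (SD, n = 8 each), a log2 difference of -0.54 (SE 0.06, limma adjusted p = 3.1e-05). All 8 HHR arrays were below the lowest NHR array. Rnf10, on the other side, differed by -0.02 (SE 0.04, limma adjusted p = 0.711).

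Both neighbours of Pop1, whose own difference was 0.02, rose in HHR. Rida, which clears reactive enamine intermediates, rose by 0.32 and Nipal2, a magnesium transporter relative, by 0.49 (limma adjusted p = 0.00163 and 0.00264), the latter in 8 of 8 arrays and by 0.28 without the NHR arrays apart. Neither neighbour of Rpp25 passed the test, with 0.02 for Scamp5 and 0.02 for the respiratory chain gene Cox5a (limma adjusted p = 0.845 and 0.767). The row after Rpph1, Osgep, a tRNA modification enzyme, differed by -0.07 (adjusted p = 0.202). Gigyf1, next to Pop7, fell by 0.23 and Fars2, next to Rpp40, by 0.17 (limma adjusted p = 0.00317 and 0.0121), while Abhd6, next to Rpp14, rose by 0.20 (limma adjusted p = 0.0491). Fars2 lost its call in 1 of 24 alternatives, with the NHR arrays apart left out (-0.12, limma adjusted p = 0.0751). Abhd6 lost it in 12, among them 7 in which a single HHR array was left out, and with the NHR arrays apart left out its difference was 0.10 (limma adjusted p = 0.349). The other neighbours did not pass the test: Plekhf1 and Vstm2b beside Pop4, Epo beside Pop7, Pxk beside Rpp14, Acbd7 and Nmt2 beside Rpp38, and Cdyl beside Rpp40, with differences from -0.18 to 0.00.

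Genes whose values followed Pop5 and Rpph1 most closely were looked up over the 16 arrays, which is a description since strain alone aligns many genes. For Pop5 the highest Pearson correlations were with Isca1, an iron-sulfur cluster assembly gene (0.945), the cation channel gene Trpm8 (0.931) and Wbp2 (0.925). For Rpph1 they were with Nenf (0.971), the prefoldin subunit gene Pfdn5 (0.967) and Hip1r (0.954). In all 6 genes every HHR array was below every NHR array, with differences from -1.49 to -0.33.

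Genes that act beside the enzymes were examined in 8 lists chosen by function, covering 103 measured genes of 132. In them the limma test called 16 higher in HHR and 17 lower and left 70 uncalled, a share of 32.0% against 20.7% of all rows, with a median difference of -0.01. These shares are of unlike sets, so nothing is read from their gap. The lists hold the brightest single-gene row of each gene, whereas 11922 of the 27342 rows carry no gene symbol. Without the NHR arrays apart 11 rose and 9 fell, and the calls over all rows went from 5651 to 3997. Of the other subunits of the nuclear enzymes, neither Rpp21 nor Rpp25l, a relative of Rpp25, passed, with -0.07 and -0.01.

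Among the genes of mitochondrial RNase P and of transfer RNA 3′ ends, 2 of 6 rose and 0 fell. Trmt10c, the methyltransferase subunit of mitochondrial RNase P, rose from 8.28 ± 0.14 in NHR to 8.72 ± 0.11 in HHR (SD, n = 8 each), by 0.44 (SE 0.07, limma adjusted p = 0.00022). The strains did not overlap. Its partner Hsd17b10 differed by 0.02 and did not pass. Trnt1, which adds the CCA end, rose by 0.19 (limma adjusted p = 0.0479), and this call was lost in 12 of 24 alternatives, including 6 with a single HHR array left out, the replicate block (adjusted p = 0.062) and the NHR arrays apart left out (0.19, adjusted p = 0.105). Elac1 and Elac2, which cut the 3′ trailer, differed by -0.06 and -0.03 and did not pass.

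Transfer RNA splicing genes gave 1 rise and 1 fall among 7. The endonuclease subunit Tsen34 rose by 0.31 and the phosphotransferase Trpt1 fell by 0.14 (limma adjusted p = 0.0424 and 0.0407), and both calls were unstable. Tsen34 lost its call in 11 of 24 alternatives, including 6 with a single HHR array left out, and was at 0.12 with the NHR arrays apart left out (adjusted p = 0.358). Trpt1 lost it in 14, including quantile normalization, median centring and cyclic loess, and was at -0.13 with those arrays left out (adjusted p = 0.0849).

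RNA polymerase III, which transcribes transfer RNA genes and the RNA of both enzymes, had 3 subunits higher and 2 lower among 11. Polr3f rose by 0.26 and Polr1c, shared with polymerase I, by 0.28 (limma adjusted p = 0.00391 and 0.0101). Polr3gl fell by 0.26 and Polr1d, also shared, by 0.27 (limma adjusted p = 0.00408 and 0.0111), the last of which lost its call with the NHR arrays apart left out (-0.15, adjusted p = 0.0535). Of 16 initiation factors and regulators 4 rose and 3 fell. Maf1, the repressor of the polymerase, fell by 0.39 (SE 0.07, limma adjusted p = 0.00156), with no overlap between the strains, and by 0.24 without the NHR arrays apart. The measured subunits of the complex that binds promoters of the Rpph1 kind had no common direction, and its subunit Snapc4 had no single-gene row. Snapc1 fell by 0.15 (limma adjusted p = 0.0158), and was at -0.12 without the NHR arrays apart (limma adjusted p = 0.0903). Snapc5 rose by 0.30 (limma adjusted p = 0.00738), and its call was not followed through the alternatives. Snapc2 and Snapc3 differed by -0.11 and -0.08 and did not pass. Brf2, which acts at the same promoters, differed by 0.08 and did not pass. The TATA-binding protein gene Tbp and Gtf3c6 each rose by 0.23 (limma adjusted p = 0.00349 and 0.00492).

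Of 32 transfer RNA modification genes 5 rose and 7 fell, and 2 rose and 4 fell with the NHR arrays apart left out. Trub2, a mitochondrial pseudouridine synthase, had the largest change in the 8 lists, falling from 9.10 ± 0.22 in NHR to 8.34 ± 0.18 in HHR (SD, n = 8 each; log2 difference -0.76, SE 0.09, limma adjusted p = 4.2e-05), with no overlap between the strains. Trit1, which adds an isopentenyl group, fell by 0.21, while the Elongator subunit Elp2 rose by 0.24 and the deaminase subunit Adat2 by 0.28 (limma adjusted p = 0.00251, 0.00172 and 0.00174).

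Most cytosolic aminoacyl-tRNA synthetases, 16 of 19, did not pass. Wars1, for tryptophan, rose by 0.50 (SE 0.09, limma adjusted p = 0.00121), every HHR array lying above every NHR array, and by 0.32 without the NHR arrays apart. Eprs1 fell by 0.24 and Hars1 by 0.21 (limma adjusted p = 0.00613 and 0.0136), and Hars1 lost its call with the NHR arrays apart left out (-0.15, adjusted p = 0.106). Of 10 genes listed for the cleavage and trimming of ribosomal RNA precursors, nucleases and other factors alike, 0 rose and 2 fell. Las1l, of the complex that cuts the second internal spacer, fell by 0.28 (limma adjusted p = 0.00118). The small-subunit nuclease Fcf1 fell by 0.42 (limma adjusted p = 0.00739), a call that was lost with the NHR arrays apart left out (-0.31, adjusted p = 0.0642). In that setting 1 gene of the list was called higher and 1 lower. The higher was Wdr12, a ribosome biogenesis factor, at 0.24 (limma adjusted p = 0.0333), against 0.11 with all arrays (limma adjusted p = 0.377).

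**Figure D4:**
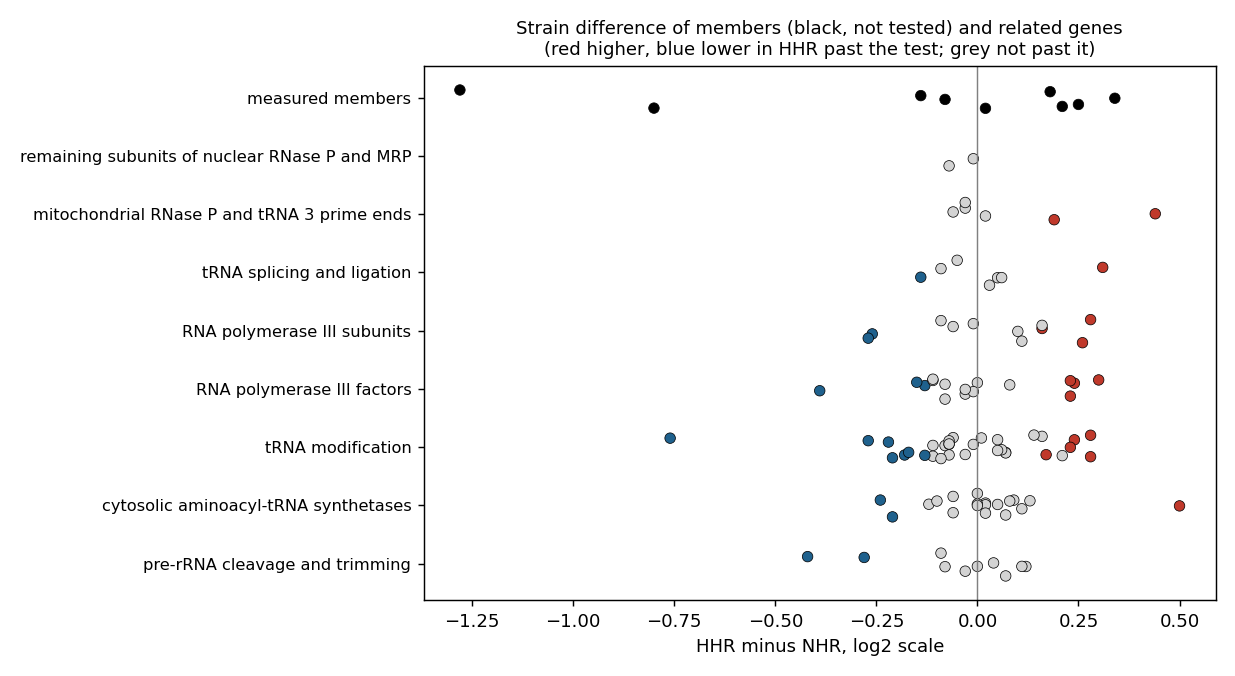
HHR minus NHR on the log2 scale for the 9 measured members (black, not tested) and for the genes of the 8 related lists, with a point for each gene, red for higher and blue for lower in HHR past the limma test and grey for the rest. The members span -1.28 to 0.34 and the related genes -0.76 to 0.50, and 5 of the lists hold called genes of both signs.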

How the data were processed

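The deposited values are log2 expression values. Per the submitters' processing notes, the authors used RMA and limma, whose versions are not given in the sources used here. All 16 columns were used. Of 27342 rows, 15097 carried 1 gene symbol in the platform annotation, 323 several and 11922 none, and 15067 of the first matched a gene in RefSeq's GRCr8 table. Each gene was read from its brightest row, by the mean over all arrays. Groups and replicate numbers came from the sample titles.

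A mean per group was fitted with limma 3.58.1 in R 4.3.3 (lmFit and eBayes). Adjusted p-values are Benjamini-Hochberg values over all rows, with a threshold of 0.05. The fit was tested on simulated data. Contrasts were strain, sex and their interaction. Errors beside differences are moderated standard errors (SE).

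The members, lists, motifs and NHR arrays apart were chosen with earlier results of these data known. Named were all members, up to 2 called genes per direction and list, neighbours, and the 3 rows most correlated with Pop5 and with Rpph1. List members named beside these were chosen after their values were seen. Nothing says that animals of a group came from separate litters, so p-values measure only the spread between these animals. Alternatives were a filter on dim rows (those kept exceed percentile 40 on 4 or more arrays), quantile normalization, median centring, cyclic loess, trended and robust moderation, array weights, a replicate block, leaving out each array and, chosen after seeing the data, leaving out the NHR arrays apart. The mean over several rows of a gene was not run, since each member had 1 row.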

Additional observations from a re-analysis of the deposited data

Results flagged for a closer look

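Among the members, 36 sets of 4 arrays (9 genes in 4 groups) were examined for an array far from the others of its group. Of these, 3 had one. Chance alone gives about 1 in 20, but the sets come from the same 16 arrays and nothing is read from the count. Pop4 in NHR male 2 read 9.79, while the other NHR males read 9.62. In NHR male 4 the Pop1 value was 6.71, against 6.65 to 6.66 in the other NHR males. Rpp40 read 7.30 in HHR female 3, against 7.20 to 7.22 in the other HHR females. The Pop1 and Rpp40 distances are small in absolute terms. Without NHR male 2, the strain difference of Pop4 kept its sign, as in all its 24 alternatives, which ran from 0.18 to 0.27.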

How the results depend on the processing

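All 648 recomputed strain, sex and interaction values of the members either moved by less than the spread between replicates (strain) or stayed on the same side of the threshold (sex and interaction). The uncalled interactions of Rpph1, Rpp38 and Rpp40 turned sign without the NHR arrays apart, from 0.21, -0.13 and -0.02 to -0.05, 0.02 and 0.16. Pop5 ran from -1.47 to -1.19, Rpph1 from -0.87 to -0.56 and Rpp25 from 0.30 to 0.41. In the fit for strain, Rpp38 was past the threshold in 17 of 24 alternatives and Rpp40, not past it with all arrays, in 2. As the members were chosen with this contrast known, these counts are a description and no test. The number of rows called for strain was 5651 and ran from 3997 without the NHR arrays apart to 6402 without NHR male 2. For sex, 3 rows were called, 5 with array weights and 0 without the NHR arrays apart. For the interaction, 0 rows were called, and leaving out each array gave 0 to 1. Of the related genes, 17 were called lower in HHR, and 9 without the NHR arrays apart, a fit on fewer arrays. Of 27 related or neighbouring genes named as called, Snapc5 not among them, 18 kept the call in every alternative. The other 9 all lost it without the NHR arrays apart, 5 of them only there, while Abhd6, Trnt1, Tsen34 and Trpt1 lost it in 12, 12, 11 and 14 of 24 alternatives, single HHR arrays left out among them and, for Trpt1, the 3 other normalizations. With the replicate number as a block, 6145 rows were called for strain and Trnt1 was the only one of these 27 genes that lost its call. Deviations of same-numbered HHR and NHR arrays correlated between -0.108 and 0.301. HHR males 1, 2 and 4 matched the NHR male of the same number best (0.0768, 0.204 and 0.301), while HHR male 3 and the HHR females did not. Whether the numbers pair the animals is not given in the labels and cannot be settled from these values.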
